A study of Homo sapiens with 40 samples.

Results

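The response of HEK293T cells to antimycin A was compared between a line carrying SLC25A12-F137S and a line labelled as carrying SLC25A12-WT. The quantity reported is a difference of responses: the log2 change with antimycin in F137S cells minus the log2 change with antimycin in the labelled line. It rests on 16 of the 40 libraries of the study, 4 in each of 4 groups chosen by their labels. A negative difference means that a gene rose less, or fell more, in F137S cells.

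HEK293T is an established line derived from human embryonic kidney. The study measured poly(A) RNA in 5 such lines, each given vehicle (labelled normal) or antimycin A at 40 nM for 6 hours, to follow target genes of the integrated stress response (ISR). Both lines compared here are labelled SLC25A12 knockout (sgSLC25A12), one with SLC25A12-WT and one with SLC25A12-F137S. Wild-type cells with vector (WT vector) and knockout cells with vector (KO vector) are used as further references. The labels do not say whether a line is a single clone. They call the libraries biological replicates without saying that they are separate cultures, so p-values measure the spread between these libraries, which may be technical.

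SLC25A12 is a mitochondrial carrier that exchanges aspartate for glutamate across the inner membrane as a part of the malate-aspartate shuttle. Antimycin A blocks respiratory complex III. Mitochondrial stress can be relayed to the cytosol by the protease OMA1 and the messenger DELE1, which activates the kinase HRI, encoded by EIF2AK1. Phosphorylation of eIF2 then slows general translation and favours translation of ATF4, a transcription factor that induces genes of amino acid synthesis and uptake, of tRNA charging and of further stress factors.

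The SLC25A12 transcript was the check of the labels. In CPM, each library's counts brought to a common total with TMM scaling, it stood at 38.7 ± 1.82 (SD, n = 4) in WT-vector cells and at 3.08 ± 0.231 in KO-vector cells in vehicle. The 4 libraries labelled SLC25A12-WT had 38.9, 38.4, 38.9 and 39.2 CPM in vehicle and 31.4, 30.2, 29.9 and 28.2 CPM under antimycin. The 4 F137S libraries had 1858, 1867, 1860 and 1826 CPM in vehicle and 1882, 1896, 1890 and 1963 CPM under antimycin. The labelled libraries thus lay at the level of WT-vector cells, while every F137S library lay far above both vector lines. Across all genes, edgeR called 0 differences between the labelled libraries and WT-vector cells in vehicle (778 genes had an unadjusted p under 0.05). Under antimycin it called 1 (0.00597%), the cilium gene CFAP44 (-0.30 log2), named after its value was seen. Against KO-vector cells in vehicle the labelled libraries differed in 8004 genes (47.8%). These libraries thus had the profile of WT vector and not that of KO vector, although their label gives the knockout. Whether the label is wrong was not tested, and they are called "labelled" throughout. The difference described here therefore sets F137S cells against cells whose profile was not told apart from WT vector, and an effect of the F137S protein cannot be told apart from that of the knockout or of the line in it.

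Library totals ran from 30764720 to 31958598 counts over the 16 libraries. Of 12 kidney epithelium markers 2 exceeded 1 CPM (PAX2 and LRP2) and 9 stayed under 1 CPM in every group, so the kidney epithelium given by the labels was largely not seen in the transcripts. Of neuronal and neural crest markers 5 of 9 exceeded 1 CPM; their summed level was 379 to 401 CPM in labelled and 227 to 244 CPM in F137S libraries in vehicle, and 326 to 347 and 222 to 231 CPM under antimycin. Fibroblast and endothelial markers above 1 CPM numbered 1 of 6 (COL1A1) and 0 of 4. The part of these levels in the results was not tested. In bulk RNA, fewer cells of a kind and less RNA per cell cannot be told apart.

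Antimycin changed expression broadly in both lines. A gene was called changed at a Benjamini-Hochberg adjusted p under 0.05 in edgeR's quasi-likelihood test over all 16739 tested genes. In labelled cells 8760 genes changed (52.3%), 4340 up and 4420 down, and in F137S cells 8574 (51.2%), 4409 up and 4165 down. Far fewer genes passed the test of a difference between the lines. For 215 genes (1.28%) the difference of responses itself was called, with 108 more positive (0.645% of tested genes) and 107 more negative (0.639%) in F137S cells. An unadjusted p under 0.05 was reached by 1866 genes. The differences were mostly small: 10 of the 215 were 2-fold or larger, and the median size was 0.23 log2. With WT vector in place of the labelled line, which uses the same F137S libraries, 249 genes were called (1.49%), 120 more positive (0.717%) and 129 more negative (0.771%). Of these 249 genes, 121 were among the 215. By DESeq2's scaling the split moved to 84 more positive of 209, or 40.2% in place of 50.2%, and with no filter on low counts to 62 of 197 (31.5%).

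**Figure D1:**
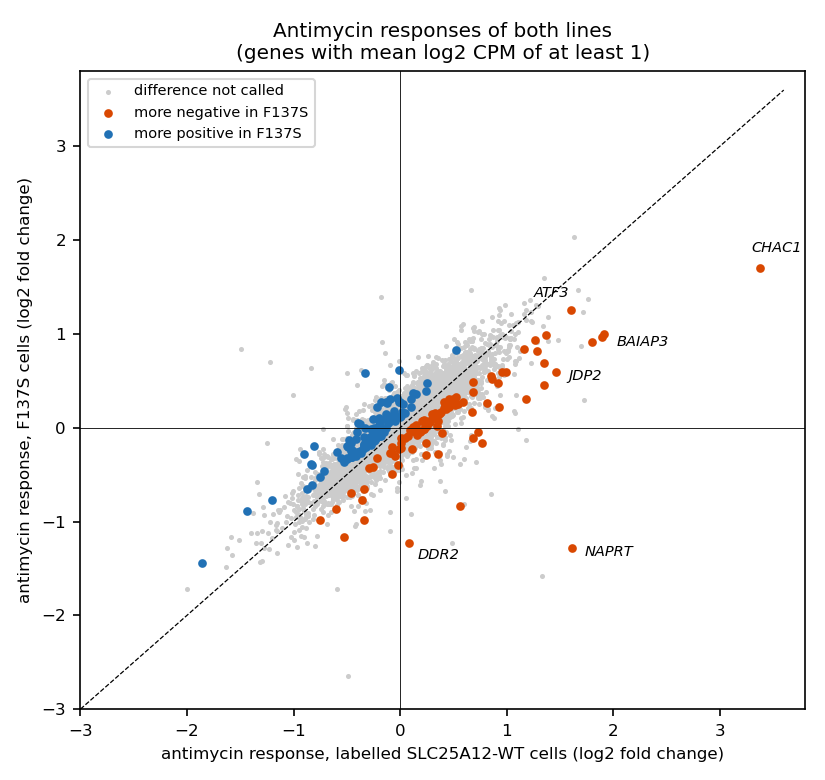
Log2 change with antimycin in the labelled line (horizontal) and in F137S cells (vertical) for tested genes with a mean log2 CPM of at least 1. Orange points are genes called more negative in F137S cells, blue points genes called more positive, grey points genes whose difference was not called, and the dashed line marks equal responses. Called genes lie close to the cloud of all genes, except a few such as CHAC1, DDR2 and NAPRT.

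The called genes fell into several classes of response. Of the 107 more negative genes, 47 rose in both lines, with a median of 0.52 log2 in labelled and 0.27 in F137S cells, and 28 rose in labelled cells without passing the test in F137S cells. A further 9 rose in labelled and fell in F137S cells, 11 did not pass in labelled and fell in F137S cells, and 12 fell in both. Of the 108 more positive genes, 52 fell in both lines, with medians of -0.43 in labelled and -0.22 in F137S cells. Another 23 fell in labelled cells and did not pass in F137S cells, and 8 fell in labelled and rose in F137S cells. The other 18 and 7 passed as risen in F137S cells only and in both lines. The estimated response was smaller in absolute size in F137S cells for 156 of the 215. That share was not counted over all tested genes, whose median absolute response was 0.198 log2 in labelled and 0.19 in F137S cells. Of all 16739 tested genes, 3394 rose in both lines and 3556 fell in both. These classes use the same libraries as the call and are a description of it.

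The more negative genes were often higher in F137S cells in vehicle and mostly lower under antimycin. In vehicle 53 of 107 were higher in F137S cells, 28 lower and 26 did not pass. Under antimycin 22 were higher, 67 lower and 18 did not pass. The more positive genes went the other way, with 35 of 108 higher and 52 lower in vehicle, and 65 higher and 25 lower under antimycin. For comparison, 48.9% of all tested genes differed between these lines in vehicle and 49.0% under antimycin, so a difference of level was common among all genes (23.2% higher and 25.7% lower in F137S cells in vehicle, 23.9% and 25.1% under antimycin). The levels and the difference of responses share the same libraries.

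Gene lists for the ISR and its targets held a large share of the more negative genes and none of the more positive ones. The 5 lists for ISR transcription factors, ISR effectors, amino acid transporters, enzymes of serine, one-carbon and proline metabolism, and cytosolic tRNA synthetases have 114 tested members together. Of these, 34 were called more negative and 0 more positive in F137S cells, against 0.639% and 0.645% of all tested genes. They make up 31.8% of all more negative calls. With any one of the 16 libraries left out the count was 32 to 35 more negative and 0 more positive. The lists were chosen with earlier results of these data known, so their counts are a description and no independent evidence of a direction.

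The ISR and the unfolded protein response act on known short elements. Promoters are shown for the 4 named genes in which such an element was found. ASNS is among them although its difference was not called. No match was found in the other named genes with a promoter, among them ATF4, SESN2, PSAT1 and HYOU1. Bases are from RefSeq on GRCh38.p14, which held a promoter for 59 of 69 named genes, and each is written in the direction of its gene as a stretch of the 250 bases before the start. Capitals mark TGATGNAA, the composite C/EBP-ATF element, found on either strand in CHAC1, ATF3 and ASNS, and CCAAT and CCACG with 9 bases between them, the ER stress element, in HSPA5 (searched on both strands, with no overlap of the elements).
CHAC1 (chr15:40953222-40953309, plus strand): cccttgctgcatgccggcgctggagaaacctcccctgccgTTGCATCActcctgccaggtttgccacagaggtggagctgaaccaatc
ATF3 (chr1:212565176-212565263, plus strand): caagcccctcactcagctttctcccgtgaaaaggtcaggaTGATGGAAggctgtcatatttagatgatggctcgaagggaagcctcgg
ASNS (chr7:97872429-97872516, minus strand): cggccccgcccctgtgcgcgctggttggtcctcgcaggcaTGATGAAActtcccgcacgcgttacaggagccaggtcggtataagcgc
HSPA5 (chr9:125241351-125241449, minus strand): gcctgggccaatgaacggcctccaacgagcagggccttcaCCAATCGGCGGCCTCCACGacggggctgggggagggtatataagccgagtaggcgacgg
In CHAC1 the match lies on the opposite strand, from -209 to -202 relative to the start, in ATF3 from -191 to -184, in ASNS from -68 to -61 and in HSPA5 from -66 to -48. The composite element occurred in 3.19% of all promoters of that length, in 1.47% of tested genes, in 4 of 87 more negative genes (4.60%) and in 1 of 93 more positive genes (1.08%). Within the 5 lists it occurred in 2 of 27 called members (7.41%) and in 6 of 61 members not called (9.84%). The ER stress element occurred in 0.0806% of all promoters and in 6 of 30 of the endoplasmic reticulum list (20%). A match is a stretch of letters and no evidence of binding.

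Among ISR transcription factors, 5 of 14 were called more negative and 0 more positive, against 0.639% and 0.645% of all tested genes. The median difference was -0.23 log2 (0.01 over all genes). ATF4, the central factor, had 590.1, 605, 597 and 591 CPM in labelled libraries in vehicle and 771, 762, 765 and 756 CPM under antimycin. In F137S libraries it had 649, 647, 645 and 651 CPM in vehicle and 675, 681, 684 and 690.3 CPM under antimycin. Every F137S library was above every labelled library in vehicle and below every labelled library under antimycin. ATF4 transcript rose by 0.36 ± 0.02 log2 (± SE, n = 4 per group) in labelled cells and by 0.07 ± 0.02 in F137S cells, and the difference was -0.28 ± 0.02 (edgeR adjusted p = 1.44e-14).

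CEBPG and ATF3, partners of ATF4, rose in both lines and rose less in F137S cells. CEBPG had 97.5, 97.0, 100 and 99.7 CPM in labelled libraries in vehicle and 155, 164, 152 and 163 CPM under antimycin, against 97.6, 95.0, 101 and 94.3 CPM and then 127, 128, 128 and 123 CPM in F137S libraries. The lines overlapped in vehicle and were separate under antimycin, with a difference of -0.30 ± 0.04 (adjusted p = 2.02e-08). ATF3, a stress-induced repressor, went from 28.7 ± 1.36 to 87.2 ± 1.32 CPM in labelled and from 24.9 ± 1.93 to 59.6 ± 1.65 CPM in F137S cells, a difference of -0.34 ± 0.06 (adjusted p = 5.07e-05). JDP2, a related bZIP protein, rose by 1.46 ± 0.09 in labelled and by 0.60 ± 0.09 in F137S cells. It was higher in F137S cells in vehicle, at 7.07 ± 0.451 CPM against 4.54 ± 0.557. Under antimycin it was lower, at 10.7 ± 0.638 against 12.5 ± 0.462. TSC22D3, a leucine zipper protein also induced by glucocorticoids, rose by 0.11 ± 0.03 in labelled cells and fell by 0.23 in F137S cells. The remaining 9 factors did not pass the test for the difference. They include DDIT3, the factor CHOP, which rose by 0.88 ± 0.07 and 0.67 ± 0.07 with a difference of -0.21 ± 0.09 (adjusted p = 0.339), and TRIB3, a pseudokinase that restrains ATF4, at -0.18 ± 0.07 (adjusted p = 0.252).

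**Figure D2:**
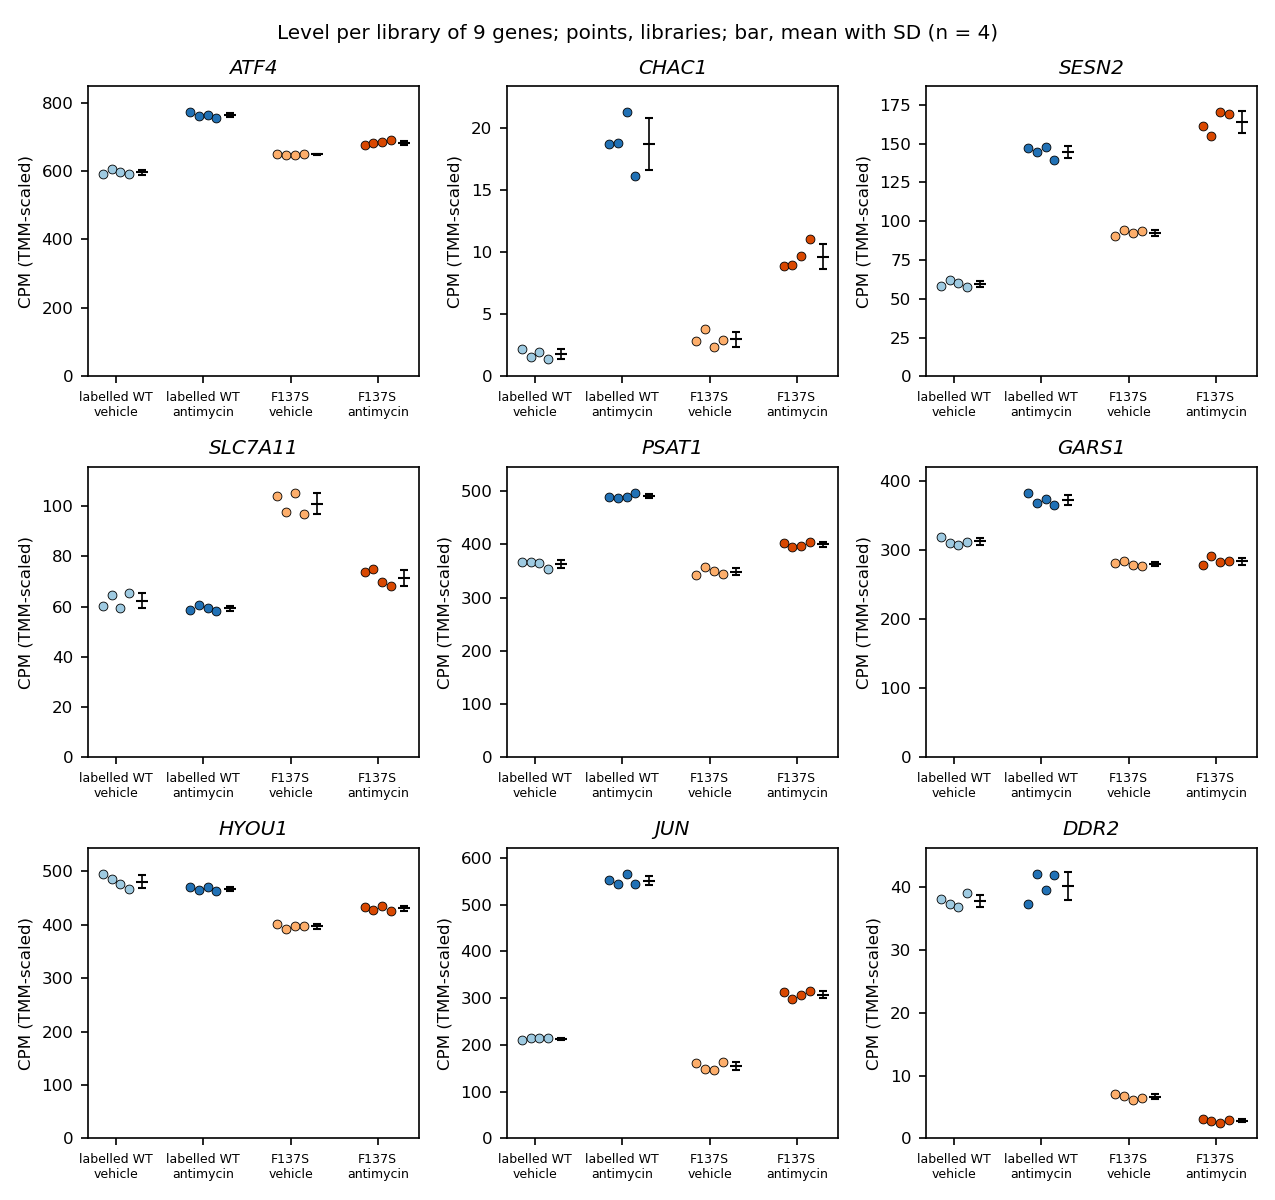
CPM (linear axes from 0) of 9 genes in each library of the labelled line (blue) and of F137S cells (orange), in vehicle (light) and under antimycin (dark); black bars give mean and SD, n = 4. For ATF4 the lines change order with treatment, with means of 596 and 648 CPM in vehicle and 763 and 683 CPM under antimycin.

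Of 32 ISR effectors, 10 were called more negative and 0 more positive, against 0.639% and 0.645% of all tested genes. The median difference was -0.14 log2 (0.01 over all genes). CHAC1, which degrades glutathione, had the largest change. Labelled libraries had 2.23, 1.59, 1.99 and 1.39 CPM in vehicle and 18.7, 18.8, 21.2 and 16.1 CPM under antimycin. F137S libraries had 2.83, 3.8, 2.35 and 2.90 CPM and then 8.89, 8.99, 9.64 and 11 CPM. F137S cells were above in vehicle and below under antimycin in every library. CHAC1 rose by 3.38 ± 0.12 log2 in labelled and by 1.70 ± 0.12 in F137S cells, a difference of -1.68 ± 0.17 (adjusted p = 3.84e-10).

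SESN2, an inhibitor of mTORC1 signalling, was higher in F137S cells in vehicle and under antimycin although it rose less. It had 58.5, 62.1, 60.2 and 57.4 CPM in labelled libraries in vehicle and 90.2, 94.3, 92.3 and 93.7 CPM in F137S libraries. Under antimycin it had 147, 145, 148 and 139 CPM in labelled and 161, 155, 170.2 and 169 CPM in F137S libraries. The rise was 1.28 ± 0.03 in labelled and 0.82 ± 0.03 in F137S cells, a difference of -0.46 ± 0.05 (adjusted p = 2.22e-10). CTH, the enzyme that makes cysteine from cystathionine, rose from 35.5 ± 1.75 to 70.5 ± 1.86 CPM in labelled and from 37.9 ± 1.33 to 57.3 ± 1.47 CPM in F137S cells, a difference of -0.40 ± 0.06 (adjusted p = 7.84e-07). The other called effectors were CLIC4, DDIT4, which restrains mTORC1, the secreted protein STC2, the tRNA exporter XPOT, the translation repressor EIF4EBP1, the lipoprotein receptor VLDLR and the autophagy protein MAP1LC3B, with differences from -0.55 (VLDLR) to -0.13 (XPOT). ASNS, asparagine synthetase, did not pass: it rose from 2.20 ± 0.457 to 6.72 ± 0.165 CPM in labelled and from 1.63 ± 0.247 to 3.86 ± 0.603 CPM in F137S cells, a difference of -0.37 ± 0.20 (adjusted p = 0.516). GDF15, a stress hormone, stayed under 1 CPM in every library and its difference of 0.59 ± 0.60 did not pass (adjusted p = 0.800).

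Averaged over each list's members, the 2 ISR lists showed the same order of libraries as ATF4 or CHAC1 only in part. The mean log2 CPM of the transcription factors was 4.44 ± 0.03 (SD, n = 4) in labelled and 4.42 ± 0.04 in F137S libraries in vehicle, with overlap, and 5.05 ± 0.03 and 4.82 ± 0.03 under antimycin, without overlap. The effectors stood at 3.96 ± 0.02 and 4.05 ± 0.03 in vehicle and at 4.53 ± 0.01 and 4.44 ± 0.02 under antimycin. F137S libraries were thus all above in vehicle and all below under antimycin for the effectors. Replicate 1 of F137S cells in vehicle lay lowest of its group, at 4.00 against 4.06 to 4.08 in the other libraries.

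**Figure D3:**
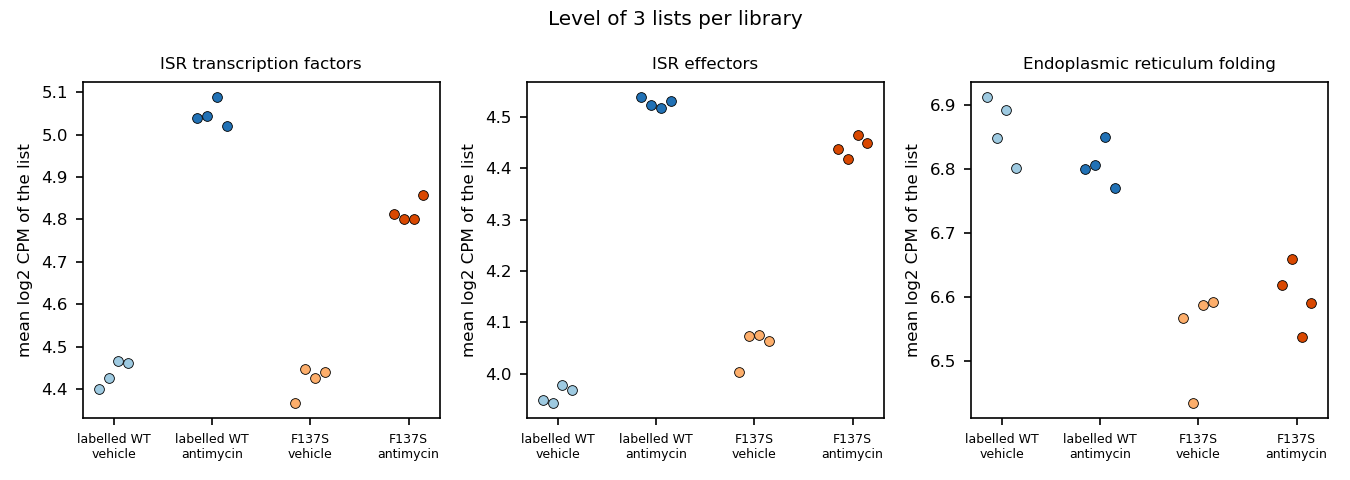
Mean log2 CPM over the members of 3 gene lists in each library of the labelled line (blue) and of F137S cells (orange), in vehicle (light) and under antimycin (dark); axes do not start at 0. ISR factors rise in both lines and are higher in labelled libraries under antimycin (5.05 against 4.82). The endoplasmic reticulum list is lower in every F137S library.

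Amino acid transporters contributed 9 more negative calls of 25 tested members and 0 more positive ones, against 0.639% and 0.645% of all tested genes. Their median difference was -0.03 log2 (0.01 over all genes), with 14 negative and 11 positive estimates. SLC7A11, the cystine-glutamate exchanger, did not rise in either line. It had 60.3, 64.4, 59.3 and 65.3 CPM in labelled libraries in vehicle and 58.8, 60.6, 59.4 and 58.2 CPM under antimycin. F137S libraries had 104, 97.9, 105 and 96.9 CPM and then 73.6, 74.8, 69.7 and 68.1 CPM. The level in F137S libraries was above labelled libraries in vehicle and under antimycin. It fell by 0.50 log2 with antimycin in F137S cells, while the labelled change of -0.07 ± 0.04 did not pass (edgeR adjusted p = 0.0749). The difference was -0.42 ± 0.05 (adjusted p = 6.66e-10).

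SLC7A1, the cationic amino acid carrier, rose by 0.23 ± 0.02 in labelled cells, from 273 ± 7.05 to 319 ± 3.06 CPM. In F137S cells it stood at 269.9 ± 4.24 and then 267 ± 7.31 CPM, a change of -0.01 ± 0.02 that did not pass, and the difference was -0.24 ± 0.03 (adjusted p = 2.66e-09). SLC6A9, a glycine transporter, had 13.5, 13.9, 12.8 and 13.5 CPM in labelled libraries in vehicle and 34.5, 33.7, 35.2 and 33.7 CPM under antimycin, against 12.1, 13.1, 12.8 and 12.1 CPM and then 22.1, 18.9, 20.5 and 19.2 CPM in F137S libraries. The groups overlapped in vehicle and were separate under antimycin, with a difference of -0.66 ± 0.08 (adjusted p = 2.02e-08). SLC3A2, the heavy chain shared by several of these carriers, rose in both lines and differed by -0.19 ± 0.03. The neutral amino acid carriers SLC1A5, SLC38A1, SLC38A2 and SLC1A4 and the cationic carrier SLC7A3 were also called, at -0.18, -0.16, -0.17, -0.27 and -0.45.

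Of 23 enzymes of serine, one-carbon and proline metabolism, 7 were called more negative and 0 more positive, against 0.639% and 0.645% of all tested genes. The median difference was -0.06 log2 (0.01 over all genes). All 3 enzymes of serine synthesis from glycolysis were among them. PSAT1, the second of them, had 367, 368, 366 and 353 CPM in labelled libraries in vehicle and 489, 487, 489.8 and 496 CPM under antimycin. F137S libraries had 342, 358, 351 and 345 CPM and then 403, 396, 397 and 405 CPM. The lines overlapped in vehicle, and every labelled library was higher under antimycin. PSAT1 rose by 0.43 ± 0.02 and 0.20 ± 0.02, a difference of -0.24 ± 0.03 (adjusted p = 5.71e-11). PHGDH, the first enzyme, rose by 0.41 ± 0.02 and 0.21 ± 0.02, and PSPH, the last, rose by 0.35 ± 0.04 in labelled cells, with a change of 0.01 ± 0.04 in F137S cells that did not pass. The mitochondrial folate enzymes MTHFD2 and ALDH1L2 were called at -0.13 and -0.15. The other called members were the transaminase GPT2 (-0.24) and PCK2, the mitochondrial phosphoenolpyruvate carboxykinase (-0.32).

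Cytosolic tRNA synthetases, which charge tRNA with amino acids, had 3 more negative calls of 20 tested members, against 0.639% of all tested genes. Of the 20 estimates 16 were negative (7945 of 16739 over all genes). GARS1, for glycine, had 320.0, 311, 308 and 313 CPM in labelled libraries in vehicle and 383, 369, 375 and 366 CPM under antimycin. It had 281, 284, 279 and 278 CPM and then 279, 291, 283 and 284 CPM in F137S libraries. The rise was seen in labelled libraries, and the F137S groups overlapped. The responses were 0.25 ± 0.02 and 0.02 ± 0.02, and the difference was -0.23 ± 0.03 (adjusted p = 1.69e-09). MARS1 (methionine) and YARS1 (tyrosine) also rose in labelled cells alone among the tests passed, with differences of -0.17 ± 0.03 and -0.13 ± 0.02. None of the 17 mitochondrial tRNA synthetases was called for the difference, against 1.28% of all genes, a count near the background for a list of this size.

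**Figure D4:**
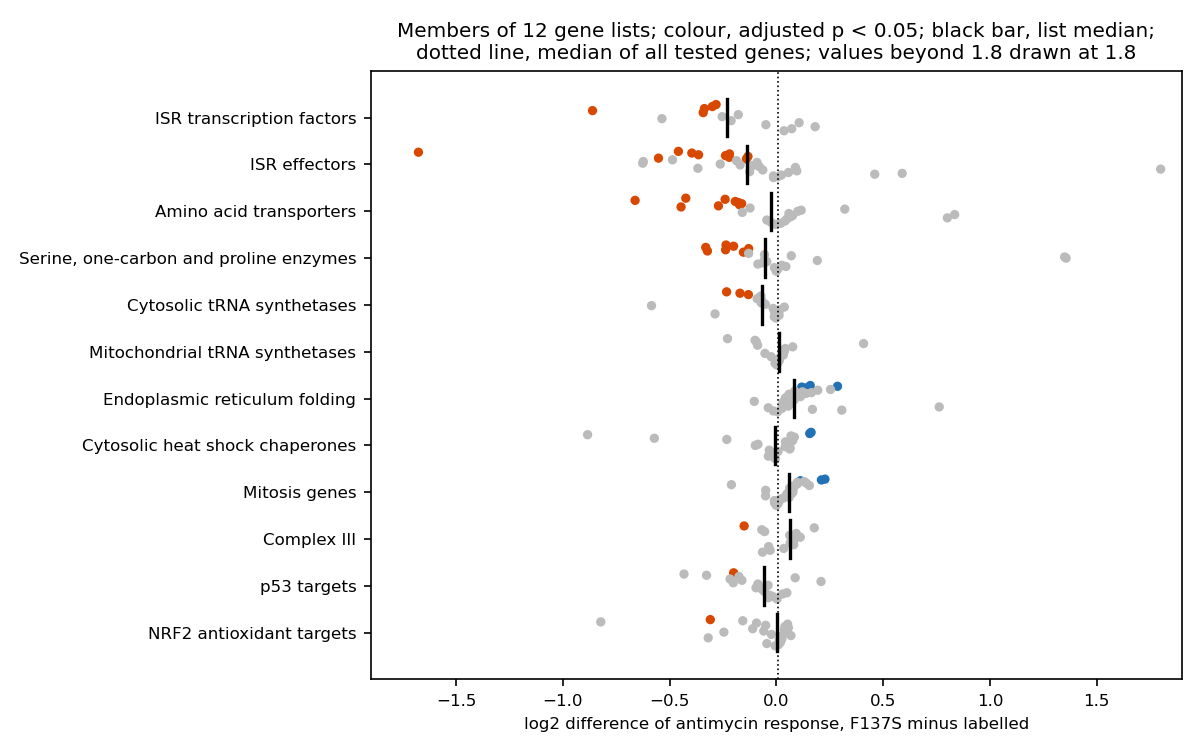
Log2 difference of antimycin response, F137S minus labelled, for the tested members of 12 gene lists. Each point is a gene, orange where called more negative, blue where called more positive and grey where not called, and the spread within a row only separates points; a black bar is the list median (-0.23 for ISR transcription factors, 0.08 for endoplasmic reticulum folding), the dotted line the median of all tested genes (0.01), and a single value beyond the axis is drawn at its edge.

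The list for the relay from mitochondria to eIF2, upstream of ATF4, had 22 tested members. Of these 1 was called (4.55%, against 1.28% of all genes), EIF2S2, a subunit of eIF2, at -0.12 ± 0.03 (adjusted p = 0.0430). That call was lost without any one of 5 libraries, namely replicate 4 of labelled cells in vehicle (adjusted p = 0.174), replicate 1 of F137S cells in vehicle (0.155), replicates 2 and 3 of labelled cells under antimycin (0.0532 and 0.0510) or replicate 3 of F137S cells under antimycin (0.0659). It was also lost with the replicate number as a block (0.0524). DELE1 stood at 49.7 ± 1.73 and 57.6 ± 1.11 CPM in labelled and 45.9 ± 2.15 and 51.0 ± 1.6 CPM in F137S cells, so both lines expressed it, and it rose in both. The difference of responses did not pass for DELE1 (-0.06 ± 0.05, adjusted p = 0.749), for EIF2AK1 (-0.02 ± 0.03, adjusted p = 0.877) or for OMA1 (-0.04 ± 0.06, adjusted p = 0.893).

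Among 45 tested carriers of the SLC25 family, SLC25A12 itself was the single call. It fell by 0.38 log2 in labelled cells and changed by 0.04 ± 0.02 in F137S cells (adjusted p = 0.0510, not passed), a difference of 0.42 ± 0.04 (adjusted p = 1.72e-14). Counts per gene symbol do not tell the native transcript from an introduced one. In vehicle SLC25A12 stood at 1853 CPM in F137S, 3.084 in KO-vector and 38.87 in labelled cells. Its difference may therefore compare transcripts of unlike origin, which was not tested. SLC25A13, the second aspartate-glutamate carrier, fell in both lines, by 0.26 and 0.24, and its difference of 0.03 ± 0.04 did not pass (adjusted p = 0.891). No member was called among the nuclear subunits of complex I (38 tested), complexes II, IV and V (32), the malate-aspartate shuttle and the citric acid cycle (38), mitochondrial chaperones and proteases (20), protein import (27) or mitochondrial ribosomal proteins (77). With 1.28% of all genes called, a count of 0 in lists of these sizes is near the background. In complex III, the target of antimycin, 1 of 15 was called, the assembly factor TTC19, at -0.15 ± 0.04 (adjusted p = 0.0315). Its call was lost without any one of 5 libraries: replicates 1 and 4 of labelled cells in vehicle (0.0510 and 0.0562), replicates 1 and 4 of F137S cells in vehicle (0.0633 and 0.0689) and replicate 1 of F137S cells under antimycin (0.0874).

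The list for folding in the endoplasmic reticulum (ER) had calls of the opposite sign. Of 34 tested members 5 were called more positive in F137S cells and 0 more negative, against 0.645% and 0.639% of all genes. Positive estimates numbered 31 of 34 (8794 of 16739 over all genes), and the median was 0.08 log2 (0.01 over all genes). Over the alternatives other than leaving out libraries, 3 to 5 members were called and the median was 0.06 to 0.08. HYOU1, a large ER chaperone, had 494, 486, 476 and 468 CPM in labelled libraries in vehicle and 471, 465, 470.3 and 464 CPM under antimycin. F137S libraries had 402, 391, 398 and 398 CPM and then 434, 428, 436 and 425 CPM. All F137S libraries lay below all labelled ones in vehicle and under antimycin. HYOU1 rose by 0.12 ± 0.02 in F137S cells, while the labelled change of -0.04 ± 0.02 did not pass (edgeR adjusted p = 0.0593). The difference was 0.16 ± 0.03 (adjusted p = 4.38e-05).

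HSPA5, the major ER chaperone BiP, had 1490, 1443, 1369 and 1408 CPM in labelled libraries in vehicle and 1411, 1393, 1385 and 1414 CPM under antimycin, which overlap. It had 971, 934, 963 and 952 CPM and then 1027, 1023, 1047 and 1031 CPM in F137S libraries, which do not. The difference was 0.14 ± 0.03 (adjusted p = 0.0105). SDF2L1, a partner of BiP, fell by 0.20 in labelled cells and changed by 0.09 ± 0.05 in F137S cells, which did not pass, and differed by 0.29 ± 0.06. PDIA4, a disulfide isomerase, rose by 0.11 ± 0.02 and 0.22 ± 0.02 and differed by 0.12 ± 0.03 (adjusted p = 0.00468, or 0.0579 with no filter on low counts). HERPUD1, which serves ER-associated degradation, was called at 0.15. As a whole the list lay lower in F137S libraries with either treatment. It stood at 6.55 ± 0.07 against 6.86 ± 0.05 mean log2 CPM in vehicle and 6.60 ± 0.05 against 6.81 ± 0.03 under antimycin.

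Of 23 tested heat shock genes 13 fell with antimycin in labelled and 12 in F137S cells, against 26.4% and 24.9% of all tested genes. For the difference, 2 were called more positive in F137S cells (0.645% of all genes) and 0 more negative. DNAJA1, an HSP40 partner of HSP70, went from 451 ± 11.3 to 319 ± 3.99 CPM in labelled and from 469.7 ± 12.6 to 372 ± 4.70 CPM in F137S cells, a difference of 0.16 ± 0.03 (adjusted p = 0.00386). HSPA8, the constitutive HSP70, was the other call, at 0.16 ± 0.04 (adjusted p = 0.0190). It was lost without replicate 1 or 2 of labelled cells in vehicle (0.0510 and 0.0579), replicate 2 of F137S cells in vehicle (0.0600) or replicate 4 of F137S cells under antimycin (0.0682). Of 34 mitosis genes 30 fell in each line (26.4% of all genes in labelled and 24.9% in F137S cells). For the difference, 3 were called more positive in F137S cells (0.645% of all genes), with a list median of 0.06. With no filter on low counts, 2 were called and the median was 0.04. The spindle gene DLGAP5 fell by 0.56 in labelled and by 0.33 in F137S cells, from 134 ± 2.50 to 91.4 ± 2.90 and from 130.3 ± 2.38 to 104 ± 4.67 CPM. Its difference was 0.23 ± 0.04 (adjusted p = 0.000169).

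Single members of other lists were called. JUN, an immediate early transcription factor, had 210.3, 214, 214 and 215 CPM in labelled libraries in vehicle and 552, 544, 565 and 544 CPM under antimycin. F137S libraries had 161, 148, 147 and 163 CPM and then 312, 298, 306 and 314 CPM. F137S libraries were below labelled ones in vehicle and under antimycin, with a wider gap under antimycin. The rises were 1.37 ± 0.03 in labelled and 0.99 ± 0.03 in F137S cells, a difference of -0.38 ± 0.04 (edgeR adjusted p = 3.13e-07). The other 28 immediate early genes tested were not called. HMOX1, heme oxygenase, fell in both lines, by 0.34 and 0.65. Its level was higher in F137S cells with either treatment (59.6 ± 2.21 against 33.3 ± 0.952 CPM in vehicle, 38.0 ± 1.72 against 26.3 ± 0.351 CPM under antimycin). PMAIP1, the BH3 protein NOXA, rose by 0.27 ± 0.03 and 0.07 ± 0.03, and H2BC21, a histone H2B gene, rose by 0.35 ± 0.09 in labelled and fell by 0.28 in F137S cells. MYC fell in both lines, by 0.75 and 0.98, and its difference of -0.23 ± 0.06 (adjusted p = 0.0183) was lost without replicate 3 of labelled cells under antimycin (0.0515) or replicate 1 of F137S cells under antimycin (0.0572). Cytosolic ribosomal proteins (83 tested) and genes of DNA replication (40) had 0 calls, near the 1.28% called over all genes.

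Of the 215 genes, 160 belonged to none of the lists. DDR2, a collagen receptor kinase, had 38.1, 37.3, 36.8 and 39.0 CPM in labelled libraries in vehicle and 37.3, 42.0, 39.5 and 41.9 CPM under antimycin. F137S libraries had 7.01, 6.81, 6.18 and 6.49 CPM and then 3.15, 2.83, 2.46 and 2.89 CPM. It was lower in every F137S library, by 2.51 log2 in vehicle, and fell further with antimycin, by 1.22, while the labelled change of 0.09 ± 0.06 did not pass. The difference was -1.31 ± 0.10 (adjusted p = 4.93e-16). NHSL1 rose by 0.73 ± 0.06 in labelled cells and changed by -0.05 ± 0.06 in F137S cells (not passed). BAIAP3, involved in vesicle release, rose from 4.01 ± 0.658 to 15.2 ± 1.71 CPM and from 5.90 ± 1.1 to 11.8 ± 1.38 CPM, a difference of -0.91 ± 0.15. CRIP2, a LIM protein, rose by 1.35 ± 0.15 and 0.45 ± 0.13. ASNSP1 is a pseudogene that can share reads with ASNS, so its difference of -0.92 ± 0.23 is uncertain, and its call was lost without replicate 1 of labelled cells in vehicle (adjusted p = 0.0958). NAPRT, an enzyme of NAD synthesis, had the largest negative value of the named genes (-2.89 ± 0.69, adjusted p = 0.0253) but its libraries scattered, from 5.77 to 10.3 CPM in labelled and from 0.403 to 1.66 CPM in F137S cells under antimycin. The NAPRT call was lost without any one of 7 libraries, with adjusted p from 0.0506 (labelled replicate 2, antimycin) to 0.0673 (F137S replicate 4, antimycin), the others being labelled replicates 2 and 4 and F137S replicate 4 in vehicle (0.0529, 0.0528 and 0.0596) and F137S replicates 1 and 2 under antimycin (0.0628 and 0.0522). Against WT vector in place of the labelled line its adjusted p was 0.544.

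Of the more positive genes outside the lists, 3 are described, each a regulator of transcription. They were not the largest. Among genes named by rule, CACNA1B (0.91 log2), PSMG3-AS1 (0.62), NANOS1 (0.62), BCDIN3D (0.55) and DNAJC3-DT (0.54) had larger differences. Each of these lost its call with WT vector as reference, whereas FOXO4, HOXA13 and TRIM66 kept theirs. FOXO4, a forkhead factor, had 49.4, 48.7, 54.5 and 52.4 CPM in labelled libraries in vehicle and 41.4, 37.5, 38.0 and 38.7 CPM under antimycin, and 18.9, 18.1, 17.8 and 17.1 CPM and then 17.8, 19.8, 17.1 and 19.8 CPM in F137S libraries. It was lower in all F137S libraries and fell in the labelled line, where the change was -0.40 ± 0.05, with a difference of 0.45 ± 0.07 (adjusted p = 1.20e-05). HOXA13, a homeobox factor of posterior development, fell by 0.83 in labelled and by 0.38 in F137S cells and changed order between the lines, from 39.2 ± 2.49 against 33.7 ± 1.51 CPM in vehicle to 22 ± 0.824 against 25.9 ± 1.76 CPM. TRIM66, a chromatin protein, fell by 1.20 and 0.77, a difference of 0.43 ± 0.08 (adjusted p = 0.000646).

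The same difference was computed between lines without any introduced SLC25A12, the KO-vector response minus the WT-vector response, which shares no library with the difference above. It called 262 genes (1.57%), 140 more positive (0.836%) and 122 more negative (0.729%). The split moved to 109 more positive of 258 with DESeq2 size factors and to 86 of 224 with no filter. Of the 215 genes, 103 were also called there, 47.9% of the one set and 39.3% of the other, and all 103 had the same sign. The sign was the same for 209 of the 215, and 172 of these had an unadjusted edgeR p under 0.05 for KO minus WT. Of all tested genes 1938 (11.6%) had such a p, with either sign. The share of equal sign over all tested genes was not counted. Across the 215 genes, chosen on one of the differences, Pearson's r was 0.64, and across 12752 genes with a mean log2 CPM of at least 1 it was 0.28; genes are not independent replicates. The 6 genes with the opposite sign were INKA2-AS1, PDXDC1, SOX2-OT, SYT13, GPR3 and AQP3, named after their values were seen.

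**Figure D5:**
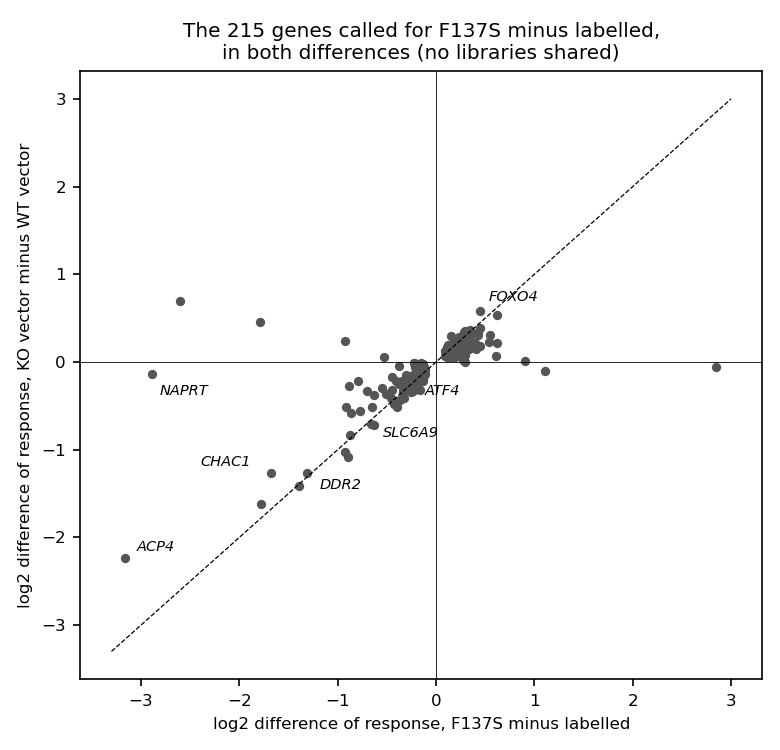
Log2 difference of antimycin response for the 215 called genes, F137S minus labelled (horizontal) and KO vector minus WT vector (vertical); each point is a gene and the dashed line marks equality. Of the 215 points, 209 lie in the quadrants of equal sign, with ATF4 at -0.28 on both axes.

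For 8 genes described above, the 2 differences are set side by side. ATF4 differed by -0.28 ± 0.02 in F137S minus labelled and by -0.28 ± 0.02 in KO minus WT. For SESN2 the values were -0.46 and -0.41, for SLC7A11 -0.42 and -0.48, for PSAT1 -0.24 and -0.29, for GARS1 -0.23 and -0.19, for HYOU1 0.16 and 0.17, and for DDR2 -1.31 and -1.26. CHAC1 differed by -1.68 ± 0.17 and by -1.26 ± 0.18. The median size over the 215 genes was 0.23 and 0.17 log2, where the first is the value on which they were chosen. The test of whether the differences themselves differ called 0 of 16739 genes in edgeR (693 with an unadjusted p under 0.05, smallest adjusted p 0.410) and 0 in DESeq2 (719 unadjusted).

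Finally, F137S cells were set against KO-vector cells, with which they share the knockout. The difference of their antimycin responses called 0 genes in edgeR (711 with an unadjusted p under 0.05, smallest adjusted p 1.00) and 0 in DESeq2 (732 unadjusted), although F137S libraries carried 1853 ± 18.3 CPM of SLC25A12 in vehicle. For ATF4 it was 0.00 ± 0.02 log2, for SESN2 0.04 ± 0.05, for SLC7A11 0.06 ± 0.05, for PSAT1 0.00 ± 0.03, for GARS1 -0.03 ± 0.03, for HYOU1 0.01 ± 0.03 and for CHAC1 -0.21 ± 0.17. The error for CHAC1 is large beside its estimate. Levels were not all equal: 14 genes (0.0836%) were higher in F137S than in KO-vector cells in vehicle and 19 (0.114%) under antimycin, with 0 lower. All are given here, named after their values were seen. In vehicle they were SLC25A12 (9.23 log2), HSPA6 (4.05), LOC101927762 (1.67), INHBE (1.23), SLC39A7 (1.16), NUPR1 (1.03), ZNNT1 (0.71), VLDLR (0.40), AMH (0.32), CTH (0.19), RERE (0.17), STC2 (0.15), SLC38A2 (0.13) and CEBPG (0.13). Under antimycin they were SLC25A12 (9.43), HSPA6 (3.2), GDF15 (2.90), LOC101927762 (2.50), INPP5D (2.09), CCDC183-AS1 (0.60), FLJ46906 (0.57), GNG13 (0.52), AMH (0.515), AKNA (0.40), NIBAN1 (0.33), RERE (0.31), MBD6 (0.28), CTH (0.26), SLC7A11 (0.20), SESN2 (0.17), IFRD1 (0.155), UNC5B (0.15) and PSAT1 (0.08).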

How the data were processed

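Poly(A) RNA was sequenced as 150-base read pairs. The authors deposited whole-number counts for each library and gene symbol, not normalized. HISAT2 2.1.0 and featureCounts 2.0.6 with hg38 are named in the submitters' processing notes; annotation, options and strand setting were not given in the sources used. Among counts from 1 to 20, 55.6% to 58.7% per library were even; the cause was not tested, and halved counts were tried.

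Libraries were grouped by the name in their labels. All 40 libraries in 10 groups were fitted with edgeR 4.0.16 (R 4.3.3): filterByExpr left 16739 of 28278 symbols, scaling was by TMM, and 1 coefficient per group was tested by quasi-likelihood with Benjamini-Hochberg adjustment over all tested genes. The common biological coefficient of variation was 0.0509. Standard errors come from the test statistic. A prior count of 2 was added for log2 CPM. Replicates of a group differed by 2.95 to 5.61 times the counting noise (chi-square per degree of freedom), so none were treated as the same library.

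The members and the 33 gene lists were chosen with earlier results of these data known. Genes named are the 12 largest called differences each way, among genes with an ordinary symbol and a mean log2 CPM of at least 1. Up to 4 called members per list were added. Always named, called or not, were ATF4, ATF3, DDIT3, TRIB3, CHAC1, ASNS, GDF15, SLC25A12, SLC25A13, DELE1, EIF2AK1 and OMA1. Not all are described. Further called list members were named after their values were seen. Same-numbered libraries were not treated as pairs: their residuals correlated at -0.00508 on average (-0.0869 to 0.0501).

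Alternatives were DESeq2 1.42.0 (size factors, and its Wald test), no filter, halved counts, the compared groups alone, WT vector as reference, a 2-fold limit, the replicate number as a block and each library left out. On simulated counts for the F137S minus labelled difference (16201 genes), 1 of 50 genes changed 1.1-fold was recovered, 22 of 50 at 1.25-fold, 31 of 50 at 1.5-fold and 35 of 50 at 2-fold, with 4 false calls of 93. The simulation gave all groups the mean of labelled vehicle libraries, with a spread set by the trend over expression level. Changed genes were drawn at random from all levels, and genes lost to the filter counted as not recovered.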

Additional observations from a re-analysis of the deposited data

Results flagged for a closer look

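The antimycin response differed between F137S and labelled cells for 215 genes, by the test of the difference itself. On the log2 scale, the differences of the genes described were as follows. ISR transcription factors were ATF4 (-0.283), CEBPG (-0.300), TSC22D3 (-0.337), JDP2 (-0.862) and ATF3 (-0.343). ISR effectors were CHAC1 (-1.68), SESN2 (-0.459), CTH (-0.396) and CLIC4 (-0.220). Amino acid transporters were SLC7A11 (-0.424), SLC7A1 (-0.240), SLC6A9 (-0.662) and SLC3A2 (-0.193). Serine and one-carbon enzymes were PSAT1 (-0.236), PHGDH (-0.201), PSPH (-0.331) and MTHFD2 (-0.130). Cytosolic tRNA synthetases were GARS1 (-0.233), MARS1 (-0.171) and YARS1 (-0.131). Chaperones of the endoplasmic reticulum were HYOU1 (0.159), SDF2L1 (0.286), PDIA4 (0.119) and HSPA5 (0.139). Cytosolic chaperones were DNAJA1 (0.162) and HSPA8 (0.156). Mitosis genes were DLGAP5 (0.227), HMMR (0.211) and BUB3 (0.113). Further more negative genes were EIF2S2 (-0.119), JUN (-0.375), MYC (-0.229), HMOX1 (-0.310), PMAIP1 (-0.200), H2BC21 (-0.627), TXNIP (-0.265), TTC19 (-0.151), DDR2 (-1.31), NHSL1 (-0.773), BAIAP3 (-0.913), CRIP2 (-0.891), ASNSP1 (-0.925) and NAPRT (-2.89). Further more positive genes were FOXO4 (0.451), HOXA13 (0.450), TRIM66 (0.431), CACNA1B (0.908), NANOS1 (0.622) and SLC25A12 (0.419).

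In 13 of 236 groups of 4 libraries examined, 1 library stood apart from the other 3, and chance gives about 1 in 20 groups. In labelled cells in vehicle, replicate 3 was low for DDIT3 (10.7 CPM against 13.3 to 13.6) and high for GDF15 (0.266 against 0.132 to 0.133), and replicate 4 was low for PSAT1 (353 against 366 to 368). Among labelled libraries under antimycin, replicate 2 was low for ASNSP1 (3.16 against 3.85 to 3.94) and replicate 4 high for CACNA1B (2.87 against 2.00 to 2.13). In F137S cells in vehicle, replicate 3 was high for ASNS (2.00 against 1.48 to 1.52), replicate 2 was low for PMAIP1 (122 against 131 to 133) and high for TRIM66 (31.6 against 28.8), and replicate 1 was low for the mean log2 CPM of the ISR effectors (4.00 against 4.06 to 4.08). Among F137S libraries under antimycin, replicate 3 was low for DNAJA1 (365 against 374 to 375) and high for ASNSP1 (5.62 against 4.38 to 4.59), replicate 1 was low for TTC19 (82.2 against 86.6 to 87.1) and replicate 2 was high for TRIM66 (18.8 against 16.5 to 16.9).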

How the results depend on the processing

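The count of 215 genes was 209 with DESeq2 size factors, 197 with no filter, 212 with counts halved, 269 by DESeq2's Wald test, 199 with the compared groups alone and 249 with WT vector as reference. The share more positive, 50.2% as reported, was 40.2%, 31.5%, 51.9%, 41.3%, 36.2% and 48.2% in that order, and the median of all genes moved by at most 0.02 log2. The calls were not all the same genes. In the same order, 191, 167, 208, 204, 170 and 121 of the 215 were called again. With each library left out it was 154 to 178. A limit of 2-fold left 10 genes (15 for KO minus WT, 469 for the F137S and 546 for the labelled response). Leaving out each library gave 170 to 208 genes, 193 to 234 for KO minus WT, 7996 to 8289 and 8188 to 8490 for the F137S and labelled responses, 0 to 1 for the test between the 2 differences (ZNF467, without replicate 1 of WT vector in vehicle) and 0 for F137S minus KO vector. The latter was 1 (FAM83H) with the compared groups alone. With the replicate number as a block, the counts were 199 for F137S minus labelled (49.7% more positive), 243 for KO minus WT, 8522 and 8741 for the responses and 0 for both further tests; EIF2S2 lost its call, and 0 of 16 libraries correlated best with their own number. No named gene with a call changed sign under any of these. With WT vector as reference MYC (edgeR adjusted p = 0.0990), TTC19 (0.112), HMMR (0.0735), CACNA1B (0.382), NANOS1 (0.120), TXNIP (0.0704) and BUB3 (0.136) also did not pass. This setting replaces the 8 labelled libraries. Other genes named by rule lost their call there too. More positive ones were BCDIN3D (0.167), DNAJC3-DT (0.11), GABPB1-AS1 (0.286), HK2 (0.135), KRCC1 (0.151), PSMG3-AS1 (0.0696) and SNHG30 (0.114). More negative ones were AQP3 (0.798), EPS8L2 (0.0925), FRS3 (0.0503) and PLPPR3 (0.177). BUB3 did not pass with no filter (0.137), with the compared groups alone (0.0806) or without any one of 8 libraries: labelled replicate 3 in vehicle (0.0625), F137S replicates 2 and 4 in vehicle (0.0718 and 0.106), labelled replicates 3 and 4 under antimycin (0.0813 and 0.0884) and F137S replicates 1, 2 and 4 under antimycin (0.0645, 0.0827 and 0.0624). TXNIP did not pass without any one of 8: in vehicle, labelled replicates 1 and 4 (0.0750 and 0.109) and F137S replicates 1, 2 and 3 (0.0633, 0.0684 and 0.0703), and under antimycin, labelled replicates 2 and 3 (0.0847 and 0.109) and F137S replicate 2 (0.112). CACNA1B did not pass without any one of 5: in vehicle, labelled replicate 3 (0.0810) and F137S replicates 1 and 2 (0.0551 and 0.0683), and under antimycin, labelled replicate 2 (0.0625) and F137S replicate 4 (0.0956). NANOS1 did not pass without labelled replicate 2 in vehicle (0.0579). The causes of the other moves were not tested. In the simulation, over genes of all levels, differences near 1.1-fold were mostly not detected. Some abundant genes were called near that size in the data, such as MTHFD2 (-0.130) and YARS1 (-0.131).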
